A study of Mus musculus with 18 samples.

Results

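BiP, encoded by Hspa5, and 9 further chaperones of the endoplasmic reticulum (ER) were followed through mRNA levels and ribosome footprints of MIN6 cells, a mouse insulinoma line that makes and secretes insulin in a β-cell-like way. The set was fixed by name: Hspa5, Hsp90b1, Hyou1, Dnajb9, Dnajb11, Dnajc3, Sdf2l1, Manf, Calr and Canx, 10 of the 6929 genes that had reads in every library. Earlier results of these data were known when the set and the gene lists below were chosen. Their counts beside shares of all genes are therefore a description and no independent test. Control cells were kept in DMSO for 18 h. The other cells were given cyclopiazonic acid (CPA, 200 µM), an inhibitor of the calcium pump of the ER, for 1 h (CPA1, acute stress) or 18 h (CPA18, chronic stress). In 3 independent experiments each condition gave an mRNA-seq library of fragmented poly(A) RNA and a Ribo-seq library of RNA pieces that ribosomes shielded from nuclease, which makes 18 libraries from cells of 1 line, all harvested with cycloheximide. The DMSO control was taken at 18 h only, so the CPA1 cells have no control of their own time.

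Proteins that enter the ER fold with the help of BiP, an Hsp70 that binds hydrophobic stretches and lets them go in a cycle of ATP hydrolysis. J-domain proteins bring BiP its clients and stimulate the hydrolysis, nucleotide exchange factors reset it, and a lectin system built on calreticulin and calnexin handles proteins that carry N-glycans. In cells that secrete as much as β-cells do, these genes answer to the unfolded protein response (UPR), whose factors ATF6, XBP1 and ATF4 bind promoters of chaperone genes.

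The ER stress response element (ERSE), which ATF6 and NF-Y recognise, was first described on promoters of ER chaperone genes, those of BiP, GRP94 and calreticulin among them, so its presence here is no independent finding. It was searched as CCAAT, 9 bases of any kind and CCACG, on both strands of the RefSeq windows of GRCm38.p6, which reach from 250 bases before to 50 bases after each gene's start. A window was given for 8 of the 10 genes, all but Hyou1 and Manf, and 5 of these 8 held ERSE, against 37 of 27025 genes with a window, or 0.137%. Hsp90b1 held ERSE at a pair of places. The ERSE sites and the 6 bases on either side are shown because members with and without a later change share them, with CCAAT and CCACG in capitals, each read on the strand that carries the motif in this direction.
Hspa5, chr2:34772019-34772049, plus strand: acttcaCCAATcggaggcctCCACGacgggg
Hsp90b1, chr10:86705632-86705662, minus strand: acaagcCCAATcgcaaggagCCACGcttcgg
Hsp90b1, chr10:86705527-86705557, plus strand: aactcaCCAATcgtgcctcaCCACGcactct
Dnajc3, chr14:118937821-118937851, plus strand: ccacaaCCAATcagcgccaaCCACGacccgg
Calr, chr8:84847069-84847099, plus strand: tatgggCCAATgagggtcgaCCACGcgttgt
Canx, chr11:50325794-50325824, minus strand: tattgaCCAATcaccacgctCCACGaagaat
The site of Hspa5 lay at positions -65 to -47 from the start, and that of Canx at -145 to -127.

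The second form of the element, ERSE-II, was searched as ATTGG, any base and CCACG. It stood in the window of Dnajb11 alone among the 8, at positions 8 to 18 after the start and thus in transcribed sequence, and in 12 of the 27025 genes, or 0.0444%. It is printed with its fixed letters in capitals.
Dnajb11, chr16:22857846-22857868, plus strand: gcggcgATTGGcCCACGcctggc
The core of the XBP1 element, TGACGTGG, and the element bound by ATF4 with its partners, TGATGNAAT, were in none of the 8 windows and in 0.714% and 1.08% of all genes with a window. No match of different motifs overlapped. The windows of Dnajb9 and Sdf2l1 held none of the 4 letter patterns.

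All libraries carried β-cell markers and were nearly free of markers of cell types from outside the islet. The 10 β-cell markers were read in every group, with a summed level of 155306 to 457744 RPKM in control mRNA-seq and 42752 to 131554 RPKM in CPA18 mRNA-seq. Markers of exocrine and ductal cells, fibroblasts, endothelium and immune cells never summed above 4.29 RPKM in any list and library. Those of the other islet cell types were read, with sums between 23.8 and 242 RPKM, far below those of the β-cell markers. RPKM are reads scaled to the length of the transcript and to the total of counted reads, so the fall of the β-cell markers, among which Ins1 and Ins2 are the insulin genes, raises the RPKM of every other gene of the CPA18 libraries. The median change of all genes is therefore printed beside the median of the 10 members or of a gene list. In such bulk samples, fewer cells of a type and less RNA per cell cannot be told apart. Library totals ran from 520960 to 4755030 counted reads in mRNA-seq and from 168129 to 1083297 in Ribo-seq. The thinnest footprint libraries were those of CPA18 in experiments 1 and 2, with 168129 and 203108 reads. That of experiment 3 had 553842 reads, more than any CPA1 footprint library. Experiment 1 stood apart in mRNA-seq, and its control library was also the shallowest. In that library Hspa5, Hsp90b1, Dnajb9, Dnajc3 and Canx were higher, and Hyou1, Sdf2l1, Manf and Calr lower, than in the controls of the other experiments. Titles and descriptions of the control libraries of experiment 2 name opposite assays, and the titles, which match the deposited column names, were followed.

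Per length of transcript, calreticulin, Manf and Sdf2l1 had the most abundant mRNAs, and BiP the most footprints. In control mRNA-seq the order of mean levels ran from Calr, with 558 RPKM, over Manf, Sdf2l1, Hspa5, Hsp90b1, Canx, Hyou1, Dnajb11 and Dnajb9 to Dnajc3, with 8.27 RPKM. None of the 9 pairs of neighbours in that order was separate over the 3 libraries. In control Ribo-seq the order began with Hspa5, with 1316 ± 158 RPKM (SD, n = 3), followed by Hsp90b1 with 877 ± 248 and Calr with 868 ± 77.7, and ended with Dnajc3, with 34.0 ± 10.6. Here 4 of 9 neighbouring pairs were separate, and Hsp90b1 and Calr were not. At CPA18 Hspa5 reached 5042 ± 360 RPKM of footprints and rank 9 among all genes, from rank 39 in control. Calr moved from rank 94 to rank 26 and Manf from rank 266 to rank 78. Canx moved the other way, from rank 310 to rank 430.

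**Figure D1:**
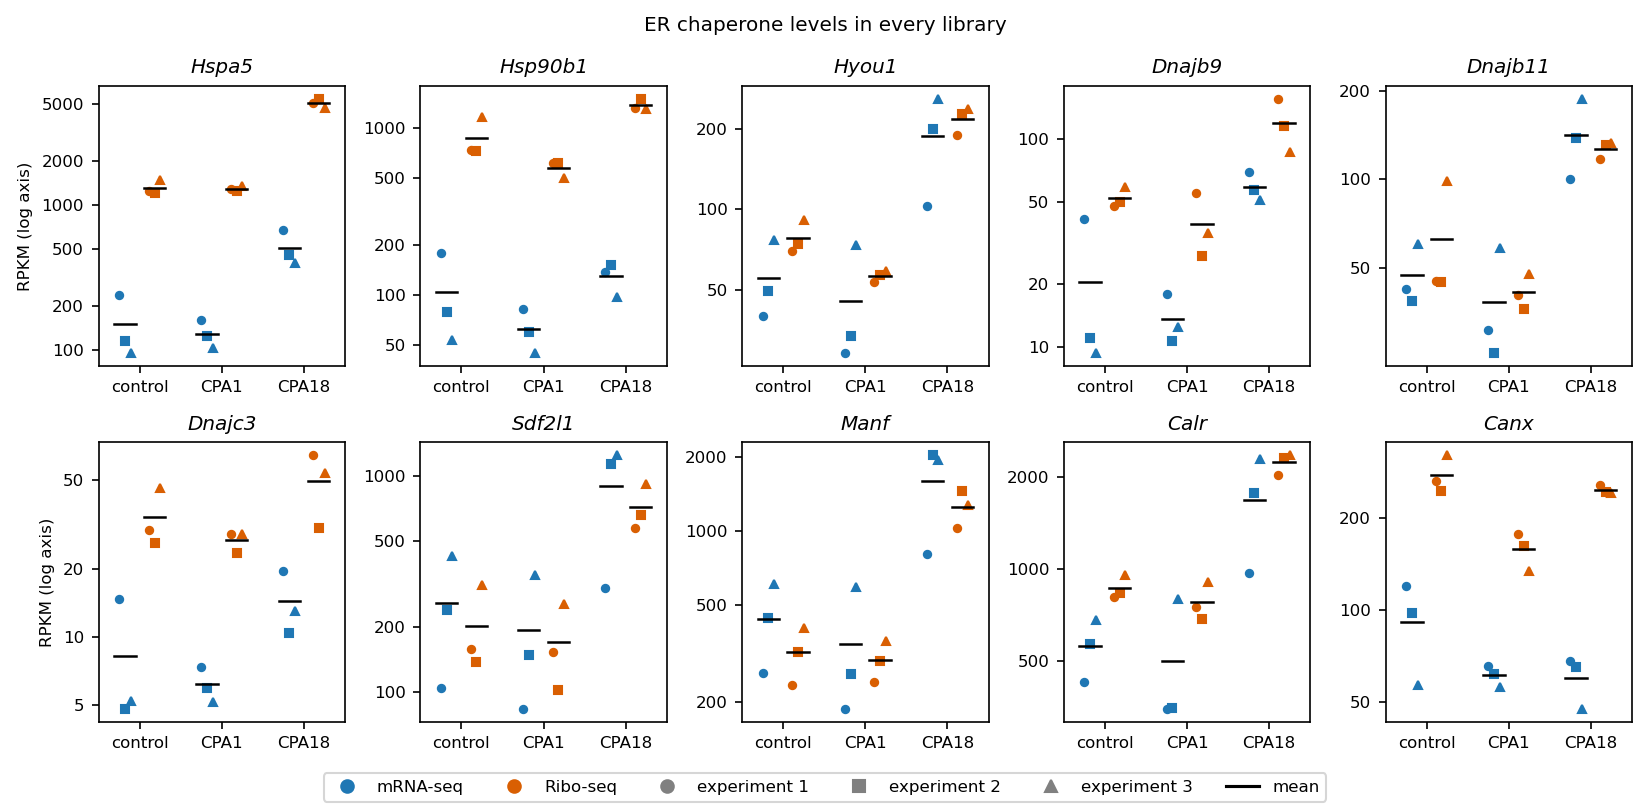
RPKM (log axis) of the 10 ER chaperone genes in control, CPA1 and CPA18, for mRNA-seq (blue) and Ribo-seq (orange). Symbols are the 3 experiments and black lines the means of n = 3; for Hspa5 the footprints rose from 1316 in control to 5042 RPKM in CPA18, while those of Canx were lowest in CPA1, with 158 RPKM.

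At 1 h of CPA none of the 10 chaperone genes had risen. In mRNA-seq 0 of 10 passed an adjusted p of 0.05 in edgeR's quasi-likelihood test with the experiment as a block. Of all genes 0.938% did, in either direction. An unadjusted 0.05 was passed by 2 of the 10 and by 455 of all 6929 genes. DESeq2 and limma also called none of the 10. Their log2 fold changes were all below 0, from -0.61 for Hsp90b1 to -0.12 for Hspa5, with a median of -0.33 beside -0.12 for all genes. In Ribo-seq 2 of 10, Canx and Hsp90b1, fell, where 2.92% of all genes were called lower. Here 4 of the 10 passed an unadjusted 0.05, as did 1273 of all 6929 genes in either direction. The median of the 10 was -0.38 and that of all genes 0.07.

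At 18 h most of the chaperones had risen in both readouts. Of the 10 genes, 8 rose in mRNA-seq against control, where 27.0% of all genes were called higher, and the exceptions were Hsp90b1 and Canx. In Ribo-seq 9 rose, where 25.6% were called higher, and Canx was the exception. The median log2 fold change of the 10 was 1.68 in mRNA-seq, beside 0.38 for all genes, and 1.24 in Ribo-seq, beside 0.42. Against CPA1, 9 rose in mRNA-seq and 10 in Ribo-seq, where 33.8% and 18.2% of all genes were called higher. The medians of that comparison were 1.93 and 1.57, beside 0.50 and 0.33 for all genes. In 6 of 10 genes the 3 CPA18 levels of mRNA lay above all 3 control levels, which held for 14.8% of all genes, and in 8 of 10 the footprint levels did, against 31.0%. When the insulin genes were dropped from the library totals, 8 rose in mRNA-seq and 8 in Ribo-seq against control. With DESeq2 the footprint calls of Hsp90b1 (adjusted p = 0.300), Dnajb11 (adjusted p = 0.0582) and Dnajc3 (adjusted p = 0.775) were lost. TMM normalization and median centring each lost those of Hsp90b1 and Dnajc3. Each of these settings also lost the mRNA-seq call of Dnajc3. The mRNA-seq calls rest on comparing libraries within an experiment. Without the experiment as a block 0 of 10 passed in mRNA-seq against control and 1, Dnajb9, against CPA1, while 8 and 10 still passed in Ribo-seq.

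**Figure D2:**
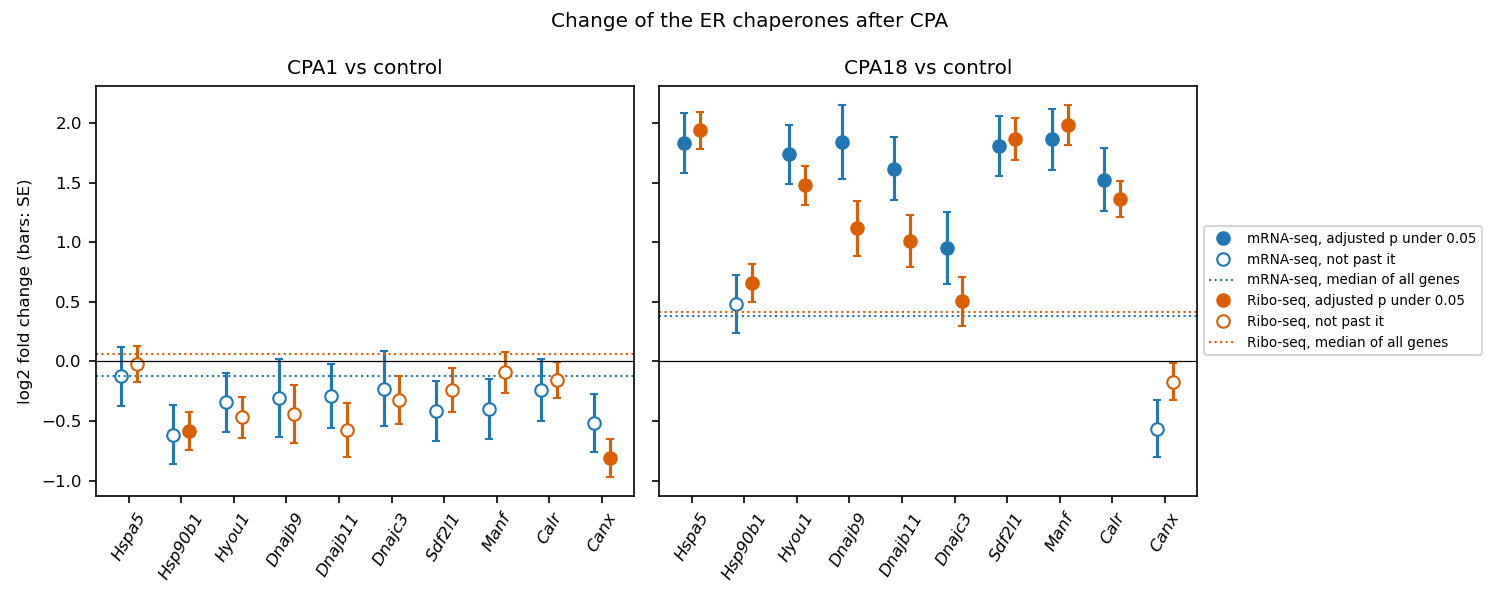
log2 fold change of each ER chaperone gene against control (points, with SE as bars) at CPA1 and CPA18, in mRNA-seq (blue) and Ribo-seq (orange), from edgeR with n = 3 per group. Filled points passed an adjusted p of 0.05 and dotted lines are the median of all genes; at CPA18 the points of Hspa5, Sdf2l1 and Manf stand at 1.81 to 1.99 and those of Canx below 0.

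BiP mRNA (Hspa5, GRCm38 chr2:34772090-34776529, read on 2 transcripts) was read at 241, 115 and 95.4 RPKM in the control libraries of experiments 1 to 3. It was at 161, 124 and 103 RPKM at CPA1 and at 674, 453 and 398 RPKM at CPA18. All CPA18 libraries lay above all others, and the CPA1 libraries within the control range. The log2 fold change at CPA18 was 1.83 ± 0.25 (SE; adjusted p = 1.22e-10 in edgeR), a fold of 3.57, and within the experiments it was 1.48, 1.98 and 2.06. Without the block the adjusted p was 0.0935. BiP footprints were at 1241, 1210 and 1498 RPKM in control, at 1288, 1241 and 1358 RPKM at CPA1 and at 5029, 5408 and 4689 RPKM at CPA18. The footprint levels of control and CPA1 overlapped, and CPA18 stood clear of both. The footprint fold was 3.84 (log2 1.94 ± 0.15, adjusted p = 9.02e-21), and it passed under all 14 alternative settings. Measured from the median gene, the log2 change was 1.45 for mRNA and 1.52 for footprints.

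Hyou1 (chr9:44379490-44392369), the large ER Hsp70 that exchanges the nucleotide of BiP, also rose at CPA18. mRNA levels were 39.8, 49.5 and 76.9 RPKM in control, 28.9, 33.6 and 73.8 RPKM at CPA1 and 103, 201 and 260 RPKM at CPA18. Its footprints were at 69.8, 74.3 and 90.8 RPKM in control, at 53.5, 56.9 and 58.5 RPKM at CPA1 and at 189, 228 and 238 RPKM at CPA18. The mRNA levels kept the same order of experiments in every condition, with experiment 1 lowest, and the CPA18 libraries lay above all controls in both readouts. The log2 fold change at CPA18 was 1.74 ± 0.25 in mRNA-seq (adjusted p = 9.10e-10) and 1.48 ± 0.17 in Ribo-seq (adjusted p = 6.88e-13). The CPA1 footprints lay below all control values, a position that 8.99% of all genes shared, but the log2 difference of -0.47 did not pass (adjusted p = 0.0833). It did after median centring of the libraries (-0.56, adjusted p = 0.0312) and with DESeq2 (-0.52, adjusted p = 0.0376).

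Manf (chr9:106888753-106891938), a small secreted ER protein that binds BiP and leaves the cell when ER calcium is lost, had the highest fitted log2 fold change of the 10 at CPA18 against control in both assays, by less than the error. The transcript was at 263, 439 and 608 RPKM in control, at 187, 260 and 589 RPKM at CPA1 and at 804, 2048 and 1952 RPKM at CPA18. Experiment 1 was lowest in each condition, and its CPA18 library was still above the highest control. Footprints were at 234, 320 and 403 RPKM in control, at 242, 293 and 355 RPKM at CPA1 and at 1029, 1458 and 1284 RPKM at CPA18. The rise was 1.87 ± 0.26 on the log2 scale in mRNA-seq (adjusted p = 1.06e-10) and 1.99 ± 0.17 in Ribo-seq (adjusted p = 6.49e-19). Hspa5, Dnajb9, Sdf2l1, Hyou1 and Dnajb11 in mRNA-seq, and Hspa5 and Sdf2l1 in Ribo-seq, differed from Manf by less than 1 SE.

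The J-domain proteins of the set, Dnajb9, Dnajb11 and Dnajc3, were all called higher at CPA18 in both assays. The footprint call of Dnajc3 was lost under 13 of 14 alternatives and that of Dnajb11 under 1. Dnajb9 (ERdj4, chr12:44205897-44210068), which serves ER-associated degradation and restrains the sensor IRE1, had mRNA levels of 41.2, 11.1 and 9.35 RPKM in control. Its mRNA levels were 18.0, 10.6 and 12.5 RPKM at CPA1 and 69.5, 57.2 and 50.7 RPKM at CPA18. The control of experiment 1 stood far above the others, and the log2 change within that experiment was 0.76, against 2.37 and 2.44 in the other experiments. Its footprints were at 47.7, 49.6 and 58.9 RPKM in control, at 54.8, 27.3 and 35.3 RPKM at CPA1 and at 156, 116 and 87.1 RPKM at CPA18. The fitted rise was 1.85 ± 0.31 in mRNA-seq (adjusted p = 2.15e-07) and 1.12 ± 0.23 in Ribo-seq (adjusted p = 4.38e-05). This gene has the thinnest footprint counts of the set, down to 20 reads in a CPA1 library.

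Dnajb11 (ERdj3, chr16:22857845-22879634), which binds unfolded clients and hands them to BiP, was read on 3 transcripts. In mRNA-seq it was at 42.1, 38.6 and 60.3 RPKM in control, at 30.7, 25.6 and 58.4 RPKM at CPA1 and at 100.0, 138 and 188 RPKM at CPA18. Footprints were at 44.8, 44.5 and 98.6 RPKM in control, at 40.3, 36.0 and 47.7 RPKM at CPA1 and at 118, 131 and 133 RPKM at CPA18. The control footprints of experiment 3 were well above the other controls, and the CPA18 footprints lay close together. The rise was 1.62 ± 0.26 in mRNA-seq (adjusted p = 5.78e-08) and 1.01 ± 0.22 in Ribo-seq (adjusted p = 9.53e-05). With DESeq2 the footprint rise was 0.67 and did not pass (adjusted p = 0.0582).

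Sdf2l1 (chr16:17130138-17132383), a partner of Dnajb11 in complexes with BiP, spread widely between experiments. Its mRNA was at 105, 241 and 430 RPKM in control, at 83.4, 149 and 350 RPKM at CPA1 and at 305, 1142 and 1258 RPKM at CPA18. The CPA18 library of experiment 1 lay below the control of experiment 3, so the groups overlapped. Within each experiment the mRNA was higher at CPA18, by 1.54, 2.24 and 1.55 on the log2 scale. Footprints were at 159, 139 and 314 RPKM in control, at 153, 103 and 257 RPKM at CPA1 and at 575, 661 and 921 RPKM at CPA18, without overlap. The fitted rise was 1.81 ± 0.25 in mRNA-seq (adjusted p = 3.44e-10) and 1.87 ± 0.18 in Ribo-seq (adjusted p = 2.83e-16).

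Dnajc3 (p58IPK, chr14:118937932-118981702), a J-domain protein of the ER lumen whose loss in mice leads to diabetes, had the smallest fitted rise at CPA18 against control among those that passed. Its mRNA was at 14.8, 4.80 and 5.20 RPKM in control, at 7.40, 5.99 and 5.19 RPKM at CPA1 and at 19.7, 10.5 and 13.1 RPKM at CPA18. Footprints were at 29.8, 26.1 and 46.1 RPKM in control, at 28.6, 23.6 and 28.7 RPKM at CPA1 and at 64.2, 30.4 and 53.6 RPKM at CPA18. Control and CPA18 overlapped in both readouts, although each experiment was higher at CPA18. The log2 change was 0.95 ± 0.30 in mRNA-seq (adjusted p = 0.00805) and 0.51 ± 0.20 in Ribo-seq (adjusted p = 0.0478), the latter 0.09 above the median gene. The footprint call was lost under 13 of 14 alternatives, where the adjusted p reached 0.843. The mRNA call was lost under 6, among them leaving out the control library of experiment 2 (adjusted p = 0.118) or experiment 3 (adjusted p = 0.235). Without experiment 1 the footprint change was 0.23. Against CPA1 the footprint rise of 0.83 (adjusted p = 0.00226) was lost under 6 of 14 alternatives, with an adjusted p of up to 0.168, and it was 0.67 without experiment 1 (adjusted p = 0.0884).

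Hsp90b1 (GRP94, chr10:86690841-86705444), the Hsp90 of the ER, had a smaller change than BiP in both readouts. mRNA levels were 177, 78.5 and 53.4 RPKM in control, 82.0, 59.9 and 44.6 RPKM at CPA1 and 137, 151 and 97.4 RPKM at CPA18. Experiment 1 went down at CPA18, by 0.37 on the log2 scale, where the others went up by 0.94 and 0.87. The fitted difference of 0.48 ± 0.25 did not pass (adjusted p = 0.113), and it was 0.91 without experiment 1 (adjusted p = 0.0259). Footprints were at 740, 727 and 1164 RPKM in control, at 619, 616 and 504 RPKM at CPA1 and at 1320, 1504 and 1306 RPKM at CPA18. The 3 conditions did not overlap: CPA1 was lowest and CPA18 highest. Footprints fell by 0.58 on the log2 scale at CPA1 (SE 0.16, adjusted p = 0.00892) and rose by 0.66 ± 0.16 at CPA18 (adjusted p = 0.000451), which is 0.24 above the median gene. The fall at CPA1 was -0.25 without experiment 3 (adjusted p = 0.397), and without the block its adjusted p was 0.0803. The rise at CPA18 was lost under 7 of 14 alternatives. It was 0.29 with TMM normalization (adjusted p = 0.209), 0.49 without the control library of experiment 2 (adjusted p = 0.0678) and 0.47 without experiment 2 (adjusted p = 0.104).

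The lectin chaperones parted. Calreticulin (Calr, chr8:84842088-84846931), soluble in the lumen and the main calcium buffer of the ER, was at 426, 567 and 682 RPKM in control mRNA-seq. It was at 348, 351 and 797 RPKM at CPA1 and at 968, 1769 and 2287 RPKM at CPA18. Footprints were at 812, 836 and 957 RPKM in control, at 753, 686 and 906 RPKM at CPA1 and at 2034, 2298 and 2358 RPKM at CPA18. All CPA18 libraries lay above all controls in both readouts. The log2 rise was 1.53 ± 0.27 in mRNA-seq (adjusted p = 4.92e-07) and 1.36 ± 0.15 in Ribo-seq (adjusted p = 4.67e-13).

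Calnexin (Canx, chr11:50293957-50325673), which has the same kind of lectin domain but is anchored in the ER membrane, did not share the rise. Its mRNA was at 120, 97.5 and 56.9 RPKM in control, at 65.6, 61.6 and 55.9 RPKM at CPA1 and at 67.9, 65.0 and 47.3 RPKM at CPA18. It was lower at CPA18 in 3 of 3 experiments, and the fitted difference of -0.56 ± 0.24 missed the threshold (adjusted p = 0.0549). The size depends on the scale: after centring every library on the median gene the difference was -0.88 (adjusted p = 0.000336), and with TMM normalization -0.87 (adjusted p = 0.000456), so that Canx then counts as lower. Canx footprints were at 264, 246 and 322 RPKM in control, at 178, 163 and 134 RPKM at CPA1 and at 256, 244 and 241 RPKM at CPA18. At CPA1 they lay below all controls, with a log2 change of -0.81 ± 0.16 (adjusted p = 6.85e-05), the largest fall of the 10, while limma gave an adjusted p of 0.25. At CPA18 they lay close to control, with a difference of -0.17 ± 0.16 (adjusted p = 0.435), which was -0.54 (adjusted p = 0.00902) with TMM normalization. From CPA1 to CPA18 the footprints rose by 0.64 ± 0.16 (adjusted p = 0.00134), while with TMM normalization the rise was 0.31 (adjusted p = 0.214).

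Ratios between genes of the same library do not depend on the library total, and they set these genes apart without any scaling. The pairs were chosen after the values were seen. With 3 libraries a group, the smallest two-sided p of an exact permutation test is 0.1, so no ratio could reach 0.05. The ratio of Calr to Canx mRNA was 3.55, 5.82 and 12.0 in control, 5.30, 5.70 and 14.3 at CPA1, which overlapped control (exact permutation p = 0.7), and 14.3, 27.2 and 48.3 at CPA18 (exact permutation p = 0.1). In footprints it was 3.07, 3.40 and 2.97 in control, 4.23, 4.22 and 6.75 at CPA1 and 7.95, 9.42 and 9.77 at CPA18. The footprint ratio was ordered by condition without any overlap. The ratio of Hsp90b1 to Hspa5 went the other way, from 0.660 ± 0.0902 in control mRNA-seq (SD, n = 3) to 0.475 ± 0.0385 at CPA1 and 0.260 ± 0.0665 at CPA18. In footprints it was 0.658 ± 0.103, 0.449 ± 0.0678 and 0.273 ± 0.00909, again without overlap between any of the conditions. The footprint ratio of Hyou1 to Hspa5 was 0.0563, 0.0614 and 0.0606 in control. It was already lower at CPA1, with 0.0415, 0.0458 and 0.0431, and stood at 0.0377, 0.0421 and 0.0507 at CPA18 (exact permutation p = 0.1 for each against control). In mRNA-seq it was 0.468 ± 0.322 in control, 0.389 ± 0.287 at CPA1 and 0.417 ± 0.251 at CPA18, with overlap. The ratio of Manf to Hspa5 overlapped between control and CPA18 in both assays, with 0.241 ± 0.0450 and 0.249 ± 0.0388 in footprints and 3.76 ± 2.64 and 3.54 ± 2.04 in mRNA-seq. That of Sdf2l1 to Dnajb11 was 3.28 ± 0.233 in control footprints and 5.62 ± 1.13 at CPA18, without overlap, and overlapped in mRNA-seq. That of Dnajc3 to Dnajb9 was 0.450 ± 0.0994 in control mRNA-seq and 0.241 ± 0.0523 at CPA18, without overlap, and overlapped in footprints.

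**Figure D3:**
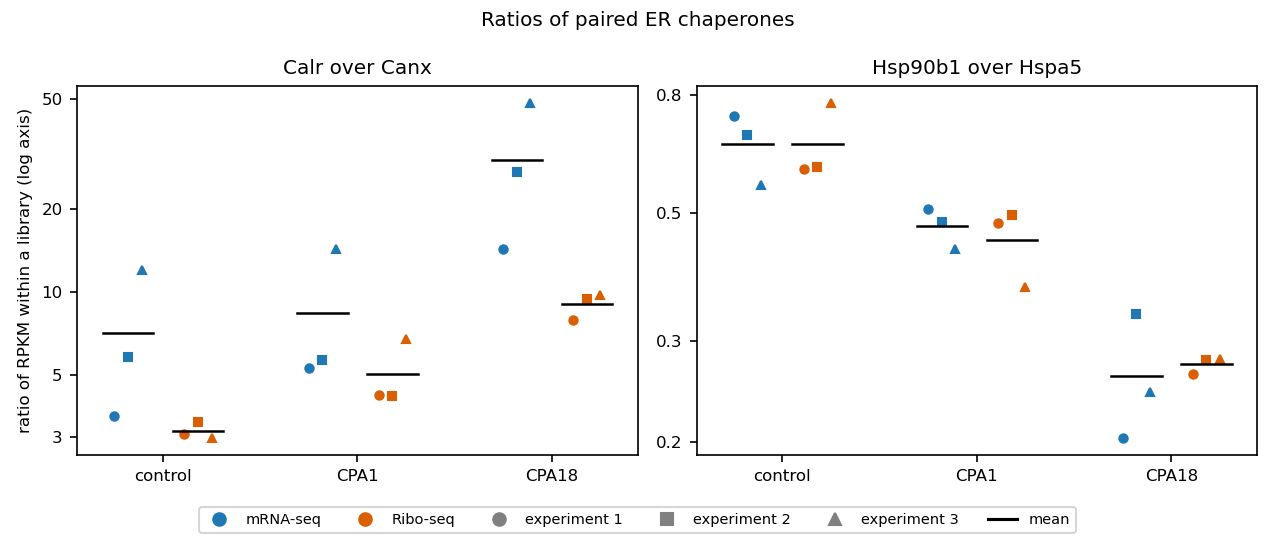
Ratio of RPKM (log axis) of Calr to Canx and of Hsp90b1 to Hspa5 within each library, for mRNA-seq (blue) and Ribo-seq (orange), with symbols for the 3 experiments and lines for the means of n = 3. In footprints the Calr ratio stood at 2.97 to 3.40 in control and 7.95 to 9.77 at CPA18, and the Hsp90b1 ratio fell on average from 0.658 to 0.273.

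Counted together, the 10 genes held a larger share of the reads at 18 h. They held 0.302% to 0.347% of counted mRNA-seq reads in control, 0.207% to 0.357% at CPA1 and 0.621% to 1.07% at CPA18. Of the footprints they held 0.888% to 1.19% in control, 0.778% to 0.839% at CPA1 and 2.48% to 2.72% at CPA18. The CPA1 libraries overlapped control in mRNA-seq and lay below it in Ribo-seq, and the CPA18 libraries lay above both. Hspa5 alone held 0.339% ± 0.0407 (SD, n = 3) of control footprints and 1.30% ± 0.0922 at CPA18. Without the reads of Ins1 and Ins2 in the total, the footprint share of the 10 genes was 1.23% in control and 2.75% at CPA18.

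**Figure D4:**
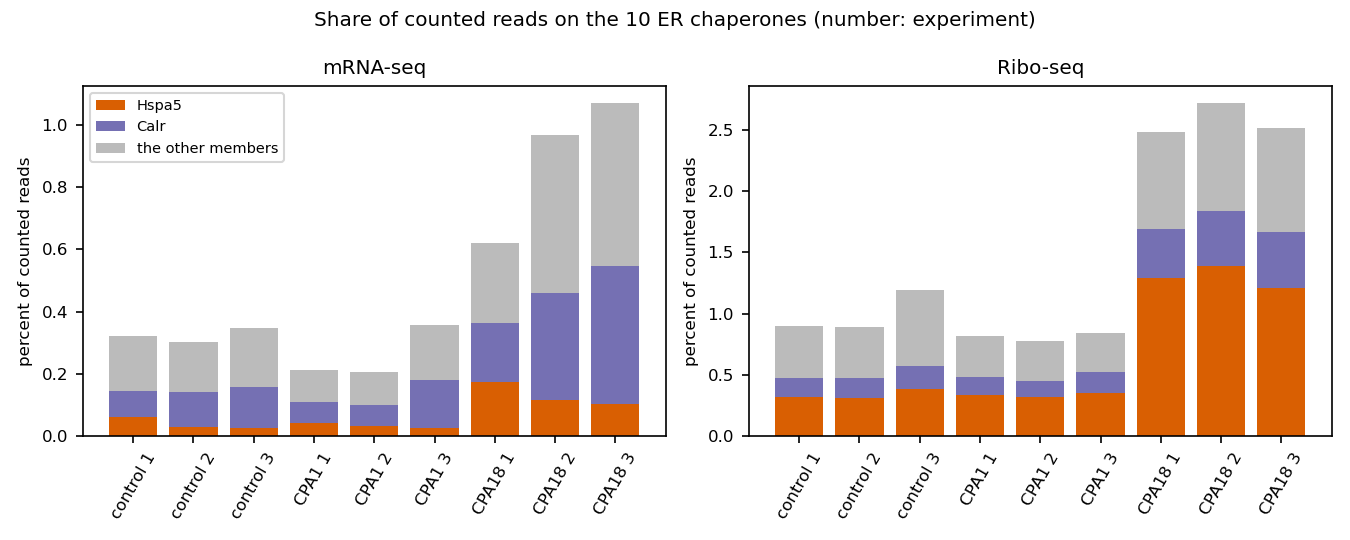
Percent of all counted reads that fell on the 10 ER chaperone genes in each library, with Hspa5 in orange, Calr in purple and the other members in grey, for mRNA-seq and Ribo-seq (each panel has its own axis, from 0). The CPA18 footprint libraries stood at 2.48% to 2.72%, and Hspa5 made up 1.30% on average.

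Ribosome occupancy, the ratio of Ribo-seq to mRNA-seq RPKM, differed widely in its mean between the chaperones and was not shown to change with treatment. BiP and Hsp90b1 stood highest, with 10.5 ± 5.28 and 11.7 ± 9.06 in control (SD, n = 3), and Manf and Sdf2l1 lowest, with 0.760 ± 0.117 and 0.941 ± 0.507. Ranges over the experiments were broad, so that of 9 pairs of neighbours in the order of mean occupancy 1 was separate in control, 3 at CPA1 and 2 at CPA18. Across all 10 genes the mean occupancy ran from 0.760 to 11.7 in control, from 1.01 to 10.4 at CPA1 and from 0.883 to 11 at CPA18. The spread between experiments was wide: BiP had 5.15, 10.5 and 15.7 in control, 7.99, 10.0 and 13.2 at CPA1, and 7.46, 11.9 and 11.8 at CPA18. The 3 groups of BiP overlapped, with experiment 1 lowest in each.

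Occupancy was compared through the assay-by-treatment interaction of an edgeR fit to all 18 libraries. None of the 10 genes passed at CPA1 against control, at CPA18 against control or at CPA18 against CPA1, where 0.0866%, 0.476% and 0.0722% of all genes passed in either direction. The medians of the 10 were -0.03, -0.05 and -0.16, beside 0.16, 0.05 and -0.11 for all genes. At an unadjusted 0.05 the counts were 0, 0 and 1 of 10, beside 493, 636 and 415 of all 6929 genes. DESeq2 called 1 of the 10, Canx, at CPA18 against CPA1. The fitted log2 change of BiP occupancy was 0.10 ± 0.29 at CPA1 and 0.11 ± 0.29 at CPA18, and its sign depended on the scaling. At CPA18 the fitted values ran from -0.73 ± 0.39 for Dnajb9 (adjusted p = 0.574) to 0.39 ± 0.29 for Canx (adjusted p = 0.715). Dnajb9 occupancy was 1.16, 4.47 and 6.30 in control and 2.25, 2.03 and 1.72 at CPA18, so that experiment 1 went up and the others down. Dnajb11 had a fitted change of -0.59 ± 0.34 (adjusted p = 0.600), which was 0.11 when only its most abundant transcript was read. Canx occupancy was 2.71, 2.64 and 2.40 at CPA1 and 3.77, 3.75 and 5.10 at CPA18, higher in 3 of 3 experiments. The fitted change of Canx occupancy from CPA1 to CPA18 was 0.69 ± 0.30 (unadjusted p = 0.0234, adjusted p = 0.738), and DESeq2 gave 0.79 with an adjusted p of 0.0113. Between these conditions 1 of 10 genes was higher in 3 of 3 experiments and 4 were lower. No share of all genes stands beside these counts, and none of the 10 changes passed the edgeR test. Dnajb9 was among the lower, with a fitted change of -0.58 ± 0.41 (adjusted p = 0.884).

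**Figure D5:**
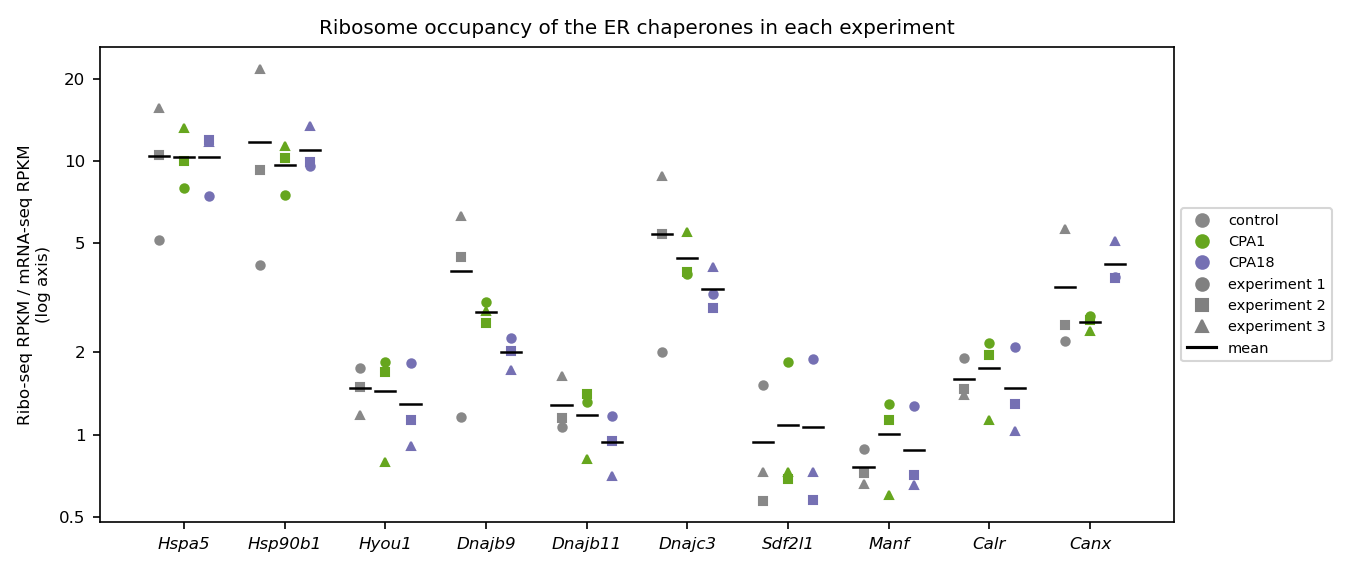
Ribosome occupancy (Ribo-seq RPKM over mRNA-seq RPKM, log axis) of the 10 genes in control (grey), CPA1 (green) and CPA18 (purple), with symbols for the 3 experiments and lines for the means of n = 3. Hspa5 and Hsp90b1 stand near 10.5 and 11.7 in control and Manf at 0.760, and the control experiments of Hspa5 spread from 5.15 to 15.7.

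Genes that work beside BiP moved unevenly. Of 11 tested BiP cofactors outside the set, 4 rose in mRNA-seq at CPA18 and 3 in Ribo-seq, counts near the 27.0% and 25.6% of all genes called higher, with median log2 fold changes of 0.67 and 0.42 beside 0.38 and 0.42 for all genes. With DESeq2 the counts were 2 and 2, and with limma 4 and 2. Here and in the lists below, the shares of all genes called are those of edgeR. The DESeq2 and limma counts have no share of their own beside them. Creld2, an ER-resident protein known as a stress-induced gene, rose by 2.08 ± 0.26 in mRNA-seq and 1.43 ± 0.21 in Ribo-seq. The translocon subunit Sec61b rose by 1.01 ± 0.24 and 1.30 ± 0.16. Sil1, the second nucleotide exchange factor of BiP, rose in mRNA-seq by 1.16 ± 0.33 and stood at 0.35 ± 0.33 in Ribo-seq (adjusted p = 0.444). Dnajc10, a J-domain reductase, had differences of -0.16 and -0.41 at CPA18, neither past the test, after its footprints had fallen by 1.23 on the log2 scale at CPA1 (adjusted p = 0.000425).

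In the lectin cycle around calnexin and calreticulin, 7 of 12 tested genes rose in mRNA-seq at CPA18, 1 fell, and 7 rose in Ribo-seq, where 27.0% and 25.6% of all genes were called higher. The medians were 0.86 and 0.59, beside 0.38 and 0.42 for all genes. DESeq2 called 6 of the 12 higher in mRNA-seq and 3 in Ribo-seq, and limma 6 and 5. Prkcsh, the β subunit of glucosidase II, rose by 1.58 ± 0.25 in mRNA-seq and 1.09 ± 0.17 in Ribo-seq. The oligosaccharyltransferase subunits Ostc and Stt3a rose by 1.56 ± 0.25 and 1.56 ± 0.25 in mRNA-seq, and glucosidase I, Mogs, by 1.38 ± 0.27. Clgn, the testis relative of calnexin, fell by 1.39 on the log2 scale in mRNA-seq (SE 0.57, adjusted p = 0.0431). Pdia3, the disulfide isomerase that partners both lectins, stood at 0.41 ± 0.24 in mRNA-seq (adjusted p = 0.175) and 0.02 ± 0.16 in Ribo-seq (adjusted p = 0.945). At CPA1 its footprints had fallen by 0.69 on the log2 scale (adjusted p = 0.000862), as had those of Uggt1, the folding sensor of the cycle, by 0.56 (adjusted p = 0.0211) and of Stt3b by 0.76 (adjusted p = 0.00658). Without the block the adjusted p was 0.127 for Uggt1 and 0.0704 for Stt3b, so that both calls were lost. These CPA1 genes were named after their values were seen.

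Of 19 other ER folding factors, 13 rose and 1 fell in mRNA-seq at CPA18, and 12 rose and 1 fell in Ribo-seq, where 27.0% and 25.6% of all genes were called higher. Their medians were 1.02 and 0.98, beside 0.38 and 0.42 for all genes. DESeq2 called 9 of the 19 higher in mRNA-seq and 9 in Ribo-seq, and limma 12 and 10. Fkbp11, a prolyl isomerase of secretory cells, rose by 2.78 ± 0.28 in mRNA-seq and 3.36 ± 0.20 in Ribo-seq. Cnpy2 rose by 1.85 ± 0.29 and 1.5 ± 0.27, and the disulfide isomerase Pdia6 by 1.40 ± 0.26 and 0.87 ± 0.15. Ero1b, the oxidase of pancreatic cells that supplies disulfides to proinsulin folding, fell by 1.53 and 1.14 on the log2 scale (adjusted p = 4.84e-08 and 4.77e-07).

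Relatives of the chaperones in other compartments differed from each other. Of 15 cytosolic relatives, 0 rose and 2 fell in mRNA-seq at CPA18, and 0 rose and 1 fell in Ribo-seq. Of all genes, 27.0% were called higher and 7.89% lower in mRNA-seq, and 25.6% and 6.25% in Ribo-seq. At an unadjusted 0.05 in edgeR, 2 of the 15 were higher in mRNA-seq and 4 in Ribo-seq. In either direction, 3072 and 2892 of all 6929 genes passed it. DESeq2 and limma called 0 of the 15 higher in either assay. The medians of the list were 0.13 and 0.11, beside 0.38 and 0.42. Hsp90aa1 fell by 0.76 on the log2 scale in mRNA-seq (adjusted p = 0.00974), and its footprints stood at -0.28 (adjusted p = 0.152). Hspa8, the constitutive Hsp70, fell by 0.40 in Ribo-seq (adjusted p = 0.0360), and its mRNA stood at 0.20 (adjusted p = 0.578). Without the block both calls were lost, with an adjusted p of 0.369 for Hsp90aa1 and 0.0988 for Hspa8. Of 6 mitochondrial relatives, 5 rose in each assay, where 27.0% and 25.6% of all genes were called higher, with medians of 1.26 and 1.02 beside 0.38 and 0.42. DESeq2 called 3 of the 6 higher in mRNA-seq and 3 in Ribo-seq, and limma 4 and 3. Hspa9, the Hsp70 of mitochondria, rose by 1.94 ± 0.25 in mRNA-seq and 1.28 ± 0.16 in Ribo-seq, and its exchange factor Grpel1 by 1.61 ± 0.26 and 1.72 ± 0.22.

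Among the UPR sensors and factors some had already risen at 1 h. At CPA1, 2 of 8 had risen in mRNA-seq, Atf4 by 1.46 ± 0.26 and Ddit3 by 1.98 ± 0.38, and 3 in Ribo-seq, these and Xbp1, which stood at 1.22 ± 0.19. Of all genes 0.505% and 3.75% were called higher there. Without the block both mRNA-seq calls were lost (adjusted p = 0.999 for each) and the Ribo-seq calls held. At CPA18, 7 of 8 had risen in each assay, where 27.0% and 25.6% of all genes were called higher, with medians of 1.41 and 1.53 beside 0.38 and 0.42. DESeq2 called 4 of the 8 higher in mRNA-seq and 5 in Ribo-seq at CPA18, and limma 7 and 6. Atf6 rose by 1.83 ± 0.41 in mRNA-seq and 2.10 ± 0.30 in Ribo-seq, and Xbp1 by 1.58 ± 0.25 and 1.75 ± 0.19. Without the experiment as a block, 3 of the 40 genes of these 6 lists that were called in mRNA-seq at CPA18 against control still passed, Ddit3, Atf4 and Fkbp11, and 31 of 36 in Ribo-seq.

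Over the 9 mRNA-seq libraries, the genes outside the set whose log2 level was most like that of Hspa5 were Nars (r = 0.98), Ssr3 (r = 0.98), Iars (r = 0.97), Rars (r = 0.97) and Aldh1l2 (r = 0.97). Among the members, Dnajb9 was nearest, with r = 0.97 and rank 3 of 4645 genes, and Canx farthest, with r = -0.04. Between them stood Dnajc3 with 0.92, Hsp90b1 with 0.81, Dnajb11 with 0.71, Hyou1 with 0.62, Calr with 0.61, Manf with 0.58 and Sdf2l1 with 0.41. The correlation takes no account of the experiment. In every condition experiment 1 had the highest mRNA levels of Hspa5 and Dnajb9 and the lowest of Hyou1, Calr, Manf and Sdf2l1. Over the 9 Ribo-seq libraries the nearest were Slc39a7, Pycr1, Smim14, Gng5 and Stbd1, with r of 0.99 each. Calr, with r = 0.99 and rank 9 of 5297, Manf with 0.98 and Hyou1 with 0.97 were the nearest members, and Canx had r = 0.33. These correlations share libraries and treatments and are given as a description.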

How the data were processed

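MIN6 cells under DMSO, CPA1 and CPA18 were profiled in 3 experiments with both assays (18 libraries). The authors removed reads of poor quality or unfit length and mapped the rest with Bowtie2 (version not given in the sources used here) onto the mouse RNA reference of GRCm38, so isoforms and close paralogs can share reads. They deposited raw read counts per RefSeq transcript and RPKM, scaled by the authors to transcript length and library total.

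Libraries were grouped by the treatment and assay in their titles. Of 30741 transcripts, 30232 were joined to RefSeq gene symbols with their version, 478 without and 31 not. Reads were required in each of the 18 libraries, which left 10163 transcripts or 6929 genes, and every curated transcript of the 10 members was among them. Counts were tested with edgeR 4.0.16 (R 4.3.3), quasi-likelihood, library total as size, 1 fit per assay over the 3 treatments, and the experiment as a block. The occupancy test was the assay-by-treatment interaction. Benjamini-Hochberg adjustment ran over all genes, with 0.05 as the threshold, and the code was tested on simulated data. The pairing comes from the labels, which number libraries by batch. Deviations from treatment means correlated within an experiment with a mean r of 0.540 in mRNA-seq (0.104 to 0.737) and 0.145 in Ribo-seq (0.0827 to 0.198). limma 3.58.1 on log2(RPKM + 0.5) or log2(RPKM + 1) and DESeq2 1.42.0 were among 14 alternatives. Shares of all genes called are printed for the main edgeR fit only. Figures were drawn with matplotlib 3.10.9.

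Named are the 10 members, up to 4 genes of each list with the smallest adjusted p in mRNA-seq at CPA18, genes that moved against their list, and the 5 genes outside the set most correlated with Hspa5 on log2(RPKM + 0.5) per assay at a mean RPKM of at least 5. Members and lists were chosen with earlier results of these data known. Marker lists cover β-cells, other neuroendocrine genes (2131 to 21726 RPKM summed), other islet types, exocrine and ductal cells, fibroblasts, endothelium and immune cells. Promoter windows and gene positions are RefSeq's for GRCm38.p6. Deposited RPM and length columns were not used here, and neither were protein sequences.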

Additional observations from a re-analysis of the deposited data

Results flagged for a closer look

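The change at 18 h differed from the change at 1 h, by the test of CPA18 against CPA1, in 9 members in mRNA-seq and 10 in Ribo-seq. Both changes share the control libraries, so the difference is that of the CPA libraries alone. In mRNA-seq the difference on the log2 scale was 1.96 for Hspa5, 1.10 for Hsp90b1, 2.08 for Hyou1, 2.16 for Dnajb9, 1.91 for Dnajb11, 1.18 for Dnajc3, 2.23 for Sdf2l1, 2.27 for Manf and 1.77 for Calr. In Ribo-seq it was 1.96 for Hspa5, 1.24 for Hsp90b1, 1.95 for Hyou1, 1.56 for Dnajb9, 1.59 for Dnajb11, 0.83 for Dnajc3, 2.11 for Sdf2l1, 2.08 for Manf, 1.52 for Calr and 0.64 for Canx. Each was higher at CPA18 in 3 of 3 experiments. The footprint difference of Dnajc3 did not pass under 6 of 14 alternatives and that of Canx under 5.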

How the results depend on the processing

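The experiment as a block carried most mRNA-seq calls. Without it, members called higher went from 8 to 0 at CPA18 against control and from 9 to 1 against CPA1, and members called lower in Ribo-seq at CPA1 from 2 to 1. limma on RPKM called 0 lower there, and leaving out a replicate gave 1 to 2. Canx made up 1 member called lower in mRNA-seq at CPA18 against control with TMM, median centring, DESeq2 and the totals without insulin genes, also without Lars2, and 1 against CPA1 with all of these but the first insulin-free total. It was also the 1 called lower in Ribo-seq at CPA18 with TMM, centring and DESeq2. In Ribo-seq at CPA1, Hyou1 was also called lower with centring and DESeq2. DESeq2 called 1 occupancy higher, that of Canx, at CPA18 against CPA1. Footprint calls of Hspa5, Hyou1, Dnajb9, Sdf2l1, Manf and Calr at CPA18 against control held in all 14 alternatives. Those of Dnajb11, Hsp90b1 and Dnajc3 were lost under 1, 7 and 13. With Ins1 and Ins2 out of the total, the members' share was 0.382% in control mRNA-seq and 1.23%, 0.996% and 2.75% in control, CPA1 and CPA18 Ribo-seq.

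Values that passed no test changed sign in places. The log2 change of Hspa5 mRNA at CPA1 became 0.057 with TMM, 0.014 with centring, 0.00013 with DESeq2 and 0.12 without Ins1, Ins2 and Lars2. Leaving out a replicate gave it -0.24 to 0.11, and gave -0.68 to 0.19 for Dnajb9 and -0.49 to 0.16 for Dnajc3. The same step gave -0.10 to 0.066 for Canx mRNA at CPA18 against CPA1 and -0.088 to 0.046 for Hspa5 footprints at CPA1. Hspa5 occupancy at CPA1 became -0.076 with TMM, -0.10 with centring, -0.060 with DESeq2 and -0.14 without Ins1, Ins2 and Lars2, at CPA18 against control -0.040 with centring, and against CPA1 -0.014 with no replicate block, -0.062 without Ins1 and Ins2 and -0.0028 with the most abundant transcript. Its ranges without a replicate were -0.17 to 0.28, -0.11 to 0.37 and -0.13 to 0.083. Canx occupancy at CPA1 ranged from -0.59 to 0.18 in this way, and Dnajb11 occupancy at CPA18 became 0.11 with the most abundant transcript. The causes were not tested. The totals without Lars2 were added after seeing the data. Footprint depth per CPA18 library was 32 to 154 reads on Dnajc3.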
